A study of Mus musculus with 32 samples.

Results

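ER-dKO, a mouse embryonic stem cell (ESC) genotype lacking *Etv5* and *Rbpj*, was compared with its parental line RGd2 in the same medium, CHIRON alone (CH). CHIRON (CHIR99021) inhibits GSK3. Of the 32 RNA-seq libraries of the study, 6 carry this comparison and were chosen by their labels: 3 of ER-dKO at passage 5 and 3 of RGd2 at passage 2. RGd2 cells carry a destabilized GFP in the Rex1 (*Zfp42*) locus, so every library here, mutant or not, holds that reporter. The 3 ER-dKO libraries are from 3 clonal lines, labelled (Ec1)Rc43 (replicate 10), ERc7 (replicate 11) and ERc9 (replicate 12), made with Cas9 and gRNA pairs against both genes. RGd2 replicates 4 and 5 are labelled as the parental line and replicate 6 as a clonal RGd2 line. No LIF and no MEK inhibitor were in the medium. The groups differ in genotype and in passages in CH together, and effects of the one and the other cannot be told apart. The 3 RGd2 libraries from 2i (CHIRON with the MEK inhibitor PD0325901) at passage 5 are shown beside them as the naive level. The RNA is from whole cultures, in which fewer cells of a type and less RNA per cell cannot be told apart. Nothing in the labels says that RGd2 replicates 4 and 5 were separate cultures. The p-values measure only a spread between libraries, which was estimated over all 32 libraries in a single fit with 21 residual degrees of freedom.

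Mouse ESCs in 2i hold the naive pluripotency of the early epiblast, kept by transcription factors such as NANOG, ESRRB and KLF4. On leaving this state they pass through a formative stage, marked by *Pou3f1*, *Otx2*, *Fgf5* and *Dnmt3b*, before lineage genes are induced. Inhibition of GSK3 stabilizes β-catenin and relieves repression by the TCF factor TCF7L1 (Tcf3), whereas MEK inhibition stops signaling from FGF to ERK. ETV5 is an ETS factor of the PEA3 subfamily, with ETV1 and ETV4, and acts downstream of FGF and ERK. RBPJ is the DNA-binding factor of the Notch pathway, which represses its targets with corepressors until the cleaved Notch receptor turns it into an activator. The question of the comparison is which genes differ between ER-dKO and parental cells in a medium in which parental cells leave the naive state.

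The gRNAs that define the genotype are shown because they set which exons the mutations lie in. Each is given 5′ to 3′ with its place in GRCm38.
*Etv5* exon 8: cgcagctccgccaccccttc
*Etv5* exon 9: gaaatacccgcctctcatgt
*Rbpj* exon 5: tgacctttatccgcttgctg
*Rbpj* exon 7: gcttgacagtctgcccgtaa
The *Etv5* pair matches chr16:22401804-22401823, in coding exon 8 of 13 of transcript Etv5-201, and chr16:22399336-22399355, in coding exon 9. The *Rbpj* pair matches chr5:53645980-53645999, in coding exon 5 of 11 of transcript Rbpj-201, and chr5:53649718-53649737, in coding exon 7. *Etv5* is on the minus strand and *Rbpj* on the plus strand. Counts were deposited per gene and not per exon, so a loss of the bases between a pair of sites cannot be read from them, and transcripts with the other exons still count.

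*Etv5* was low in each ER-dKO library, *Rbpj* was low in 2 of 3, and the PEA3 relatives *Etv4* and *Etv1* were higher than in RGd2. Values are normalized counts, scaled by the spike-in transcripts added to every library, always in the order of replicates 4 to 6 for RGd2, 10 to 12 for ER-dKO and 1 to 3 for RGd2 in 2i. Where values stand against each other, those of RGd2 in CH come first unless 2i is named. A value in brackets that carries a ± is the log2 fold change of ER-dKO over RGd2 in CH with its SE. *Etv5* (ENSMUSG00000013089.15) had 13685, 13108 and 13372 in RGd2 replicates 4 to 6 and 1954, 1397 and 1684 in ER-dKO replicates 10 to 12, with no overlap. The log2 fold change of ER-dKO over RGd2 was -3.00 ± 0.16 (SE, n = 3 against 3), and edgeR's quasi-likelihood test gave an adjusted p = 1.01e-18. *Rbpj* (ENSMUSG00000039191.12) had 4338, 3814 and 3882 in RGd2 and 1138, 1307 and 3489 in ER-dKO. The library labelled ER-dKO replicate 12 thus kept *Rbpj* counts above those of all 3 RGd2 libraries in 2i, which had 2830.2, 3385 and 2853, and just under the lowest RGd2 library in CH. The log2 fold change of *Rbpj* was -1.02 ± 0.21 (adjusted p = 7.33e-05) with this library and -1.71 ± 0.14 (adjusted p = 7.26e-13) without it.

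Counts of genes are therefore given without the library labelled ER-dKO replicate 12 as well. Where a gene list has no second count, the same members were called without it. Of the 5369 genes called between the other 5 libraries, it lay nearer to the other ER-dKO libraries than to RGd2 at 5305 (98.808%). The same shares were 98.133% for replicate 10 and 98.495% for replicate 11 when each was left out in turn. RGd2 replicate 4 had the lowest share of its group, with 87.361%, against 95.579% for replicate 5 and 92.264% for replicate 6. The shares were computed on the spike-in scale. There the size factor of replicate 4 (0.470) was under that from the gene counts (0.497). For replicates 5 (0.799 and 0.753) and 6 (0.535 and 0.500) the spike-in factor was the higher. On raw counts, replicate 4 was nearer to replicates 5 and 6 than these were to each other. The chi-square per degree of freedom was 5.33 and 4.62 against 8.32. These shares describe the libraries, and whether an *Rbpj* transcript of replicate 12 codes for a working protein was not tested.

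The 3 related factors on this list were higher in every ER-dKO library than in any RGd2 library in CH. *Etv4* had 1340.2, 1205 and 1448 in RGd2 and 5495, 4963 and 5275 in ER-dKO, a log2 fold change of 1.98 ± 0.12. *Etv1* had 455, 408 and 405 in RGd2 and 1147, 1167 and 1300.0 in ER-dKO, a log2 fold change of 1.51 ± 0.14. Both were lower still in 2i, at 18.9, 30.2 and 26.7 and at 146, 191 and 148, so *Etv4* was over the 2i level by 5.65 in RGd2 and by 7.63 in ER-dKO on the log2 scale. Per length, mean *Etv4* was 61.9 ± 2.4 (SD, n = 3) FPKM in ER-dKO, next to 14.97 ± 2.31 for *Etv5*. *Tcf7l1*, the TCF repressor of the naive network, had 245, 202 and 194 in RGd2 and 464, 423 and 458 in ER-dKO, the latter close to its 2i counts of 495, 592 and 463. Its fit gave 1.08 ± 0.23 (adjusted p = 0.00019).

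**Figure D1:**
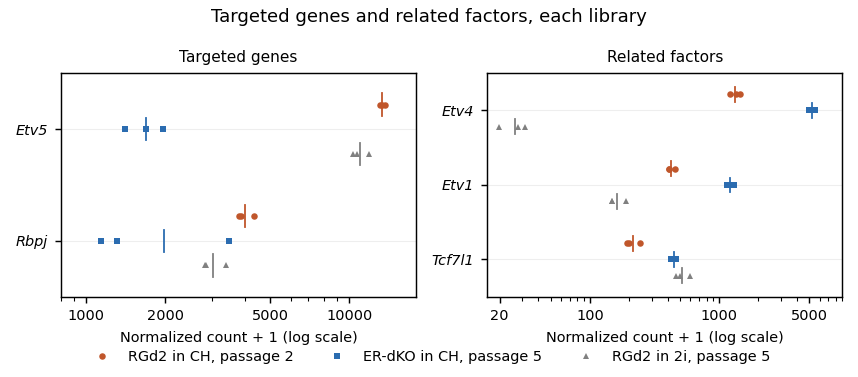
Normalized count plus 1 (log axis) of *Etv5* and *Rbpj* (left) and of *Etv4*, *Etv1* and *Tcf7l1* (right) in each library, with vertical ticks at group means. For *Rbpj* the library labelled ER-dKO replicate 12 sits at 3489, beside the RGd2 libraries and apart from the other ER-dKO libraries at 1138 and 1307.

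The libraries held between 12588312 and 71439411 counts on genes, with all 3 ER-dKO libraries (34208077 and above) deeper than all 3 RGd2 libraries (19430463 and below). Spike-ins took 1.23% ± 0.0445 (SD, n = 3) of the counts in ER-dKO and 1.35% ± 0.0702 (SD, n = 3) in RGd2, and mitochondrial genes 17.2% ± 0.394 and 16.3% ± 0.612. An exact two-sided permutation test of either share gave p = 0.2, where 3 against 3 cannot go below 0.1. Markers of ES cells summed to 1797 to 1896 FPKM in RGd2 and to 3013 to 3100 FPKM in ER-dKO, against 2875 to 3038 in 2i, none of the 7 being under 1 FPKM. Markers of definitive endoderm (4), primitive endoderm (5) and fibroblasts (5) were all under 1 FPKM in every library of both CH groups, with sums of at most 0.994, 2.09 and 0.873 FPKM.

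Of 18892 genes tested, 3422 (18.1%) were called higher and 2578 (13.6%) lower in ER-dKO than in RGd2. A gene was called where the adjusted p was under 0.05 and the mean FPKM was at least 1 in either group. Only 12083 of the genes tested passed this FPKM minimum. The shares of 18.1% and 13.6% are the background for each count over a gene list. Genes under the minimum cannot be called. A list whose members all pass it, such as glycolysis or lysosome, stands against 3422 and 2578 of 12083, which are larger shares. FPKM here are counts scaled to the length of a gene's exons and to the total of the gene counts of a library. Without the library labelled ER-dKO replicate 12, 2995 (15.9%) of 18881 were higher and 2374 (12.6%) lower. The median log2 fold change over all genes tested was 0.02. At 10812 genes (57.2%) the 3 libraries of a group lay all above or all below the 3 of the other group, which is the background for each statement on overlap.

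**Figure D2:**
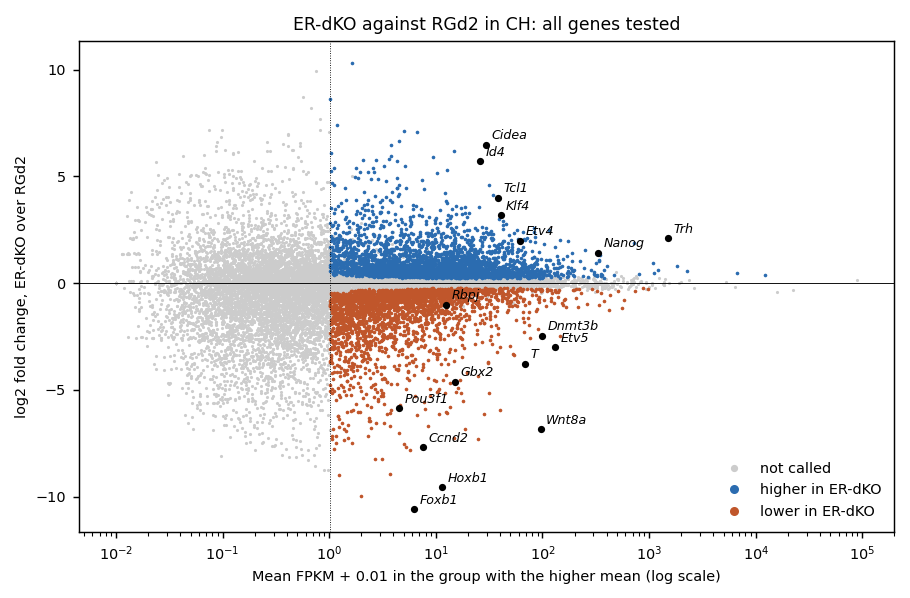
Log2 fold change of ER-dKO over RGd2 in CH (vertical) against the mean FPKM plus 0.01 in the group with the higher mean (horizontal, log axis), 1 point per gene tested, with called genes in color, the dotted line at the FPKM minimum and some genes named. *Cidea* at 6.48 and *Id4* at 5.71 lie near the top of the named genes, and *Foxb1* and *Hoxb1* near the bottom.

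Most naive factors were higher in ER-dKO than in RGd2. Of 18 naive factors tested, 14 were higher and 2 lower, with a median log2 fold change of 1.43, against 0.02 over all genes. The count was the same without the library labelled ER-dKO replicate 12. *Nanog* had 8505, 7417 and 6883 in RGd2 and 20199.6, 20237 and 20669.6 in ER-dKO, with 2i at 16244, 18109 and 16159. Its log2 fold change was 1.42 ± 0.10 (adjusted p = 1.38e-14). *Esrrb* (6263, 5446 and 4940.0 against 15480.3, 15046 and 15527) and *Tfcp2l1* (4901, 4268 and 3208 against 16858, 17417 and 17784), both of the core naive network, had log2 fold changes of 1.47 ± 0.11 and 2.07 ± 0.14. For these 3 genes each ER-dKO library was more than 2 times as high as any RGd2 library in CH.

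The Krüppel-like factors *Klf4* and *Klf5*, the T-box factor *Tbx3* and the AKT coactivator *Tcl1* were above the 2i libraries as well. *Klf4* had 423, 387 and 305 in RGd2, 3393, 3209.9 and 3501 in ER-dKO and 900.2, 979 and 717 in 2i. *Tbx3* had 925, 789.8 and 629.6 in RGd2, 4593, 4099.7 and 4587 in ER-dKO and 1831, 2331 and 1925 in 2i, and *Klf5* had 757, 726 and 469 in RGd2, 1917, 1655 and 1837 in ER-dKO and 928, 1009.7 and 842 in 2i. Each ER-dKO library was above each library of both RGd2 groups for all 3. *Tcl1* showed the highest log2 fold change of the list, 3.996 ± 0.16, from 113, 139 and 103 to 1849.9, 1951 and 1938, with 2i at 851, 922 and 854. *Klf2*, a further Krüppel-like factor, rose less, from 866, 902 and 818 to 1487, 1617 and 1643 (0.87 ± 0.21). Its ER-dKO counts were under the 2i counts (1784, 2083 and 1925), a difference that was not called. *Prdm14*, a repressor of FGF signaling and DNA methyltransferases, was called intermediate, with 111, 95.1 and 85.9 in RGd2, 339.8, 414 and 368 in ER-dKO and 841, 809 and 875 in 2i. *Nr5a2*, a nuclear receptor of the *Pou5f1* enhancer, overlapped 2i in ER-dKO, at 3068, 2887 and 3182 against 2611, 3121 and 2731, from 772, 713 and 710.0 in RGd2.

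A pair of naive factors went the other way. *Dppa3* (Stella), a maternal factor that guards against DNA methylation changes, had 170.2, 123 and 220.5 in RGd2, 2.68, 4.49 and 2.43 in ER-dKO and 172, 183 and 149 in 2i, so that RGd2 overlapped 2i and ER-dKO was far below both (-5.58 ± 0.54, adjusted p = 2.71e-11). *Gbx2*, a homeobox factor induced by LIF and STAT3, had 779, 839.9 and 856 in RGd2 and 34.9, 24.3 and 45.4 in ER-dKO (-4.62 ± 0.21, adjusted p = 9.09e-21). It was under its 2i counts of 94.3, 104 and 116 in ER-dKO and above them in RGd2. *Stat3* itself had 868, 881 and 680.1 in RGd2 and 834, 830.3 and 788 in ER-dKO, with overlapping groups and a log2 fold change of 0.01 ± 0.12 (adjusted p = 0.951). *Zfp42*, the reporter locus, had 4021, 3619.8 and 3253 in RGd2, 9877, 9612 and 9827 in ER-dKO and 6773, 7617 and 6443 in 2i (1.43 ± 0.12), in each ER-dKO library above 2i.

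Set beside the 2i libraries, the same genes give each CH group its own distance from the naive level. Both distances use the same 2i libraries and are given as values only. Across all genes, 3450 (18.3%) were higher and 1635 (8.65%) lower in RGd2 in CH than in 2i, and 3922 (20.8%) higher and 975 (5.16%) lower in ER-dKO in CH than in 2i. These splits depend on the scaling: with TMM they were 2678 higher and 3463 lower for RGd2, and 2851 and 2019 for ER-dKO. The median over all genes tested was 0.17 and 0.20 on the spike-in scale and -0.0033 and 0.03 with TMM, and distances are read against these shifts. On the spike-in scale *Nanog* was -1.15 in RGd2 and 0.27 in ER-dKO relative to 2i, the latter not called with TMM. *Esrrb* was -1.39 and 0.08, and *Tfcp2l1* -2.10 and -0.03. *Klf4* was -1.22 and 1.96, and *Tbx3* -1.38 and 1.12, so that 2i lay between the CH groups for both.

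Other genes of the naive state were mostly higher too. Of 15 tested, 11 were higher and 1 lower in ER-dKO, again the same count without the library labelled ER-dKO replicate 12, with a median of 1.15. *Fgf4*, the FGF ligand that ESCs make themselves, had 893, 836 and 962 in RGd2 and 4900.3, 4859 and 5214 in ER-dKO, against 3075, 3693 and 2966 in 2i. *Lifr*, the receptor for LIF, had 1051, 854 and 897 in RGd2 and 5075, 5029.5 and 5282 in ER-dKO, against 2288, 2664 and 2251 in 2i. Log2 fold changes were 2.48 ± 0.12 and 2.46 ± 0.13, and *Il6st*, the gp130 partner of LIFR, had 1.15 ± 0.13. *Spic*, an ETS factor, was near absent in RGd2 at 0, 13.8 and 1.87 and had 166, 148 and 129 in ER-dKO, under its 2i counts of 289.9, 341 and 247. *Ooep*, a gene of the oocyte subcortical complex, had 329.7 to 376 in RGd2 and 1778 to 1859.6 in ER-dKO (2.34 ± 0.14). The 1 lower member was *Socs3*, the feedback inhibitor of LIF signaling, with 229.7, 322 and 229.8 in RGd2 and 156, 139.5 and 147 in ER-dKO (-0.83 ± 0.25), whose call was lost without RGd2 replicate 5.

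Factors of pluripotency in general moved less than the naive factors. Of 12 tested, 8 were higher and 2 lower, and 7 and 2 without the library labelled ER-dKO replicate 12, with a median of 0.33. *Pou5f1* (Oct4) had 15369.7, 13911 and 16526 in RGd2 and 23609, 22915 and 22971 in ER-dKO (0.60 ± 0.09), and *Sox2* had 4365, 4052 and 3653 in RGd2 and 8509.6, 8734 and 8848 in ER-dKO (1.11 ± 0.12). The lower members were *Lin28a*, an RNA-binding inhibitor of let-7 maturation, at 18384, 16116 and 15126 against 7667, 7386 and 7512 (-1.14 ± 0.13), and *Esrp1*, an epithelial splicing regulator, at 1640.1, 1657 and 1577 against 43.6, 49.4 and 48.6 (-5.10 ± 0.22). *Esrp1* was at 66.0, 73.6 and 77.1 in 2i, so that RGd2 alone was called above it.

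Formative genes were mostly lower in ER-dKO: 18 of 23 tested were lower and 2 higher, with a median of -1.65, and the counts did not change without the library labelled ER-dKO replicate 12. *Pou3f1* (Oct6) had 438, 452 and 419 in RGd2, 5.36, 7.11 and 10.5 in ER-dKO and 7.07, 7.89 and 7.20 in 2i, a log2 fold change of -5.85 ± 0.33 (adjusted p = 6.15e-18) between the CH groups. *Dnmt3b*, a de novo DNA methyltransferase, had 12908, 12027 and 13378 in RGd2, 2175, 2341 and 2427 in ER-dKO and 2420.2, 2548 and 2321 in 2i (-2.46 ± 0.13). Relative to 2i, ER-dKO was 0.01 and -0.07 on the log2 scale for these genes, without a call, and RGd2 5.86 and 2.39. *Fgf5* had 85.1, 116 and 129 in RGd2 and 10.7, 16.1 and 8.10 in ER-dKO (-3.16 ± 0.36), the latter within the range of 2i (21.2, 6.57 and 20.6). *Sox3*, a SoxB1 factor of the later epiblast and neural plate, had 104, 173 and 131 in RGd2 and 6.70, 5.24 and 0 in ER-dKO (-4.95 ± 0.45).

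Some formative genes were under the 2i level in ER-dKO. *Lef1*, the TCF/LEF factor that activates Wnt targets, had 3459, 3104 and 3569 in RGd2, 120.0, 99.1 and 72.1 in ER-dKO and 1388, 1137 and 1094 in 2i (-5.11 ± 0.20 between the CH groups, adjusted p = 2.18e-22). *Lin28b* had 1647, 1663 and 1786 in RGd2, 129, 121 and 113 in ER-dKO and 412, 373 and 330.0 in 2i (-3.81 ± 0.20), and *Sfrp2*, a secreted Wnt inhibitor, 262, 269 and 348 in RGd2, 44.9, 38.2 and 30.8 in ER-dKO and 111, 112 and 110.0 in 2i (-2.94 ± 0.22). In these 3 genes 2i lay between the CH groups. *Pim2*, a survival kinase, and *Cldn6*, a tight junction protein, had log2 fold changes of -2.66 ± 0.16 and -2.56 ± 0.19 and stayed above 2i in ER-dKO, by 0.81 and 1.52.

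*Otx2* was an exception in the formative list. *Otx2*, the homeobox factor that drives the formative program, had 927, 829.9 and 1134 in RGd2, 973, 992 and 913 in ER-dKO and 328, 377 and 374 in 2i. The CH groups overlapped, with a log2 fold change of -0.0032 ± 0.12 (adjusted p = 0.988), and both were above 2i, by 1.41 and 1.41. *Dnmt3l*, the cofactor of the de novo methyltransferases, was higher in ER-dKO, with 5501, 4293 and 4398 against 11112, 11044 and 11648 (1.25 ± 0.14) and 2305, 2484 and 1410.3 in 2i. *Zic2* was the other higher member, at 1946, 1658 and 1657 against 2392, 2369 and 2521 (0.47 ± 0.14). The 4 formative marker genes summed to 110 to 129 FPKM in RGd2, 26.2 to 28.4 in ER-dKO and 25.2 to 26.6 in 2i.

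The streak genes detected in RGd2 were mostly low in ER-dKO. Of 21 tested, 8 were lower and 1 higher, also without the library labelled ER-dKO replicate 12, with a median of -2.28. Without the FPKM minimum 14 were lower. *T* (Brachyury), the T-box factor of the streak and a Wnt target, had 4159, 3988 and 3866 in RGd2, 326, 259.6 and 296 in ER-dKO and 353, 292 and 274 in 2i (-3.77 ± 0.21, adjusted p = 4.87e-18). *Wnt8a*, a Wnt ligand of the streak, had 4763, 3895 and 4011 in RGd2, 36.9, 31.8 and 42.9 in ER-dKO and 42.4, 25.0 and 21.6 in 2i (-6.85 ± 0.31, adjusted p = 8.45e-21). *Fgf8* had 751, 669.6 and 484 in RGd2, 4.02, 5.98 and 6.48 in ER-dKO and 16.5, 17.1 and 5.1395 in 2i (-6.82 ± 0.43). For these 3 genes the ER-dKO libraries overlapped the 2i libraries, while the lowest RGd2 library in CH stood far above both. *Wnt3*, the ligand that starts the streak, was below 2i in ER-dKO, at 28.2, 25.4 and 22.7 against 125, 126 and 195 and 196, 175 and 172 in RGd2 (-2.82 ± 0.29).

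The higher streak gene was *Eomes*, a T-box factor of streak, endoderm and trophoblast. It had 229.7, 184 and 183 in RGd2 and 1199.8, 1094 and 1227 in ER-dKO (2.57 ± 0.22, adjusted p = 5.63e-13), against 196, 293 and 269 in 2i. The caudal factors *Cdx1* (1608, 1422 and 1209 against 490.0, 395 and 438) and *Cdx2* (487, 423 and 288 against 150.1, 111 and 109) had log2 fold changes of -1.68 ± 0.19 and -1.70 ± 0.28. *Nkx1-2*, also a gene of the caudal epiblast, overlapped between the groups, at 3178, 3233 and 3057 in RGd2 and 3487, 3218 and 3617 in ER-dKO (0.12 ± 0.11, adjusted p = 0.385). Mesoderm genes further on were scarce in both groups: 4 of the 6 streak and mesoderm markers, all but *T* and *Eomes*, were under 1 FPKM in every library of both groups, and *Msgn1* was at 0 in every ER-dKO library. The streak markers summed to 70.2 to 74.0 FPKM in RGd2, most of it from *T* at 69.1 ± 1.89 (SD, n = 3), and to 14.8 to 16.6 FPKM in ER-dKO. In 2i the sum was 8.435 to 9.621 FPKM, under that of ER-dKO.

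Some Hox genes, which pattern the body axis, were detected in RGd2 and close to 0 in ER-dKO. Of 38 considered 22 were tested, with 5 lower and 17 not called, also without the library labelled ER-dKO replicate 12. The other 17 were under 1 FPKM on average in both groups, and without the FPKM minimum 15 were lower. The lower genes were *Hoxa2*, *Hoxa5*, *Hoxa7*, *Hoxb1* and *Hoxb2*. *Hoxb1* had 721, 712 and 553 in RGd2, 2.01, 0 and 0.81 in ER-dKO and 0, 1.31 and 1.03 in 2i, and *Hoxb2* 357, 338 and 286 in RGd2, 1.34, 0.374 and 0 in ER-dKO and 0, 0 and 0 in 2i. *Hoxa7* had 87.2, 83.9 and 76.6 in RGd2, 0, 3.37 and 0.81 in ER-dKO and 42.4, 48.6 and 34.9 in 2i (adjusted p = 7.43e-12). Folds are not given for these genes, which had few counts in ER-dKO. *Hoxa5* had 132, 144 and 164 in RGd2 and 0.67, 0.374 and 0 in ER-dKO, and the models of *Hoxa3* and *Gm28308* overlap it on the same strand. None of the genes of the C and D clusters was called.

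**Figure D3:**
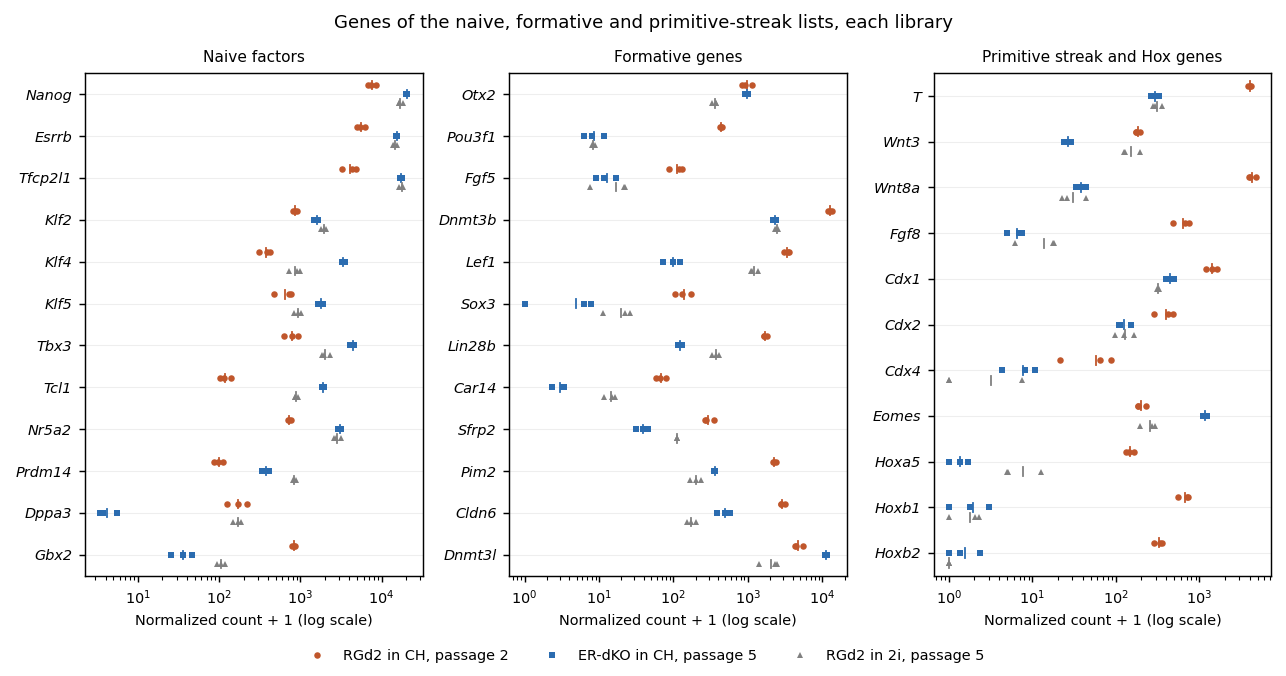
Normalized count plus 1 (log axis) of naive factors, formative genes and streak or Hox genes in each library, with vertical ticks at group means. Of the 12 naive factors drawn, all but *Dppa3* and *Gbx2* lie to the right of RGd2 in ER-dKO, most formative and streak genes lie to the left of it, *Otx2* overlaps, and *Dnmt3l* and *Eomes* lie to the right.

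Most endoderm and neural genes were under 1 FPKM on average in both groups. Of 12 primitive endoderm genes tested 1 was higher and 1 lower, the laminins *Lama1* and *Lamb1*, and 5 were lower without the FPKM minimum. None of 7 definitive endoderm genes was called by edgeR or by DESeq2, and 3 had an unadjusted p under 0.05 in edgeR, all lower in ER-dKO and under 1 FPKM. *Gata4*, an endoderm factor, was under 1 FPKM on average, with 65.9, 60.1 and 61.7 in RGd2 and 14.1, 12.3 and 11.3 in ER-dKO. Of 11 neural genes 1 was higher and 3 lower, and 1 and 2 without the library labelled ER-dKO replicate 12, while 8 were lower without the FPKM minimum. *Sox1* had 89.3, 109 and 82.2 in RGd2 and 10.7, 6.36 and 16.2 in ER-dKO and *Pax6* 63.8, 45.1 and 39.2 in RGd2 and 4.02, 8.23 and 9.72 in ER-dKO, both under 1 FPKM on average, while *Sox11*, a SoxC factor of neural and other progenitors, was lower at 1502, 1368 and 1343 against 188, 177 and 136 (-3.06 ± 0.19). The higher neural member was *Tubb3*, a β-tubulin (0.70 ± 0.12). The 5 neural markers (*Sox1*, *Pax6*, *Nes*, *Tubb3* and *Hes5*) summed to 20.87 to 22.57 FPKM in RGd2 and 21.99 to 24.44 in ER-dKO. In 2i they summed to 23.45 to 25.89 FPKM, so the sum was not lower in ER-dKO than in RGd2 in CH.

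In the trophectoderm list of 7 tested, 2 were higher and 3 lower. The 5 trophectoderm markers, all but *Cdx2* under 1 FPKM in every library, summed to 5.815 to 8.748 FPKM in RGd2. Their sums were 1.842 to 2.488 FPKM in ER-dKO and 2.183 to 3.378 in 2i. The simple-epithelium keratins *Krt8* (2623, 2548 and 1592 against 256, 329.5 and 282) and *Krt18* (2240.0, 1990.2 and 1444 against 181, 186 and 175) had log2 fold changes of -2.96 ± 0.19 and -3.39 ± 0.20. *Tead4*, a partner of YAP in trophectoderm and ESCs, was higher, from 132, 151 and 87.8 to 990.0, 928 and 991 (2.95 ± 0.20), as was the ETS factor *Elf3* (1.14 ± 0.14). Of 10 germ cell genes 6 were lower and 4 not called, with a median of -1.48: *Mael*, a piRNA factor, had 640.3, 656 and 609 in RGd2 and 52.3, 51.6 and 45.4 in ER-dKO (-3.66 ± 0.18), and the helicase gene *Ddx4* (Vasa) 489, 462 and 435 in RGd2 and 67.0, 65.5 and 80.2 in ER-dKO (-2.71 ± 0.18). *Mael* and *Ddx4* were also under their 2i counts of 137, 227 and 158 and 141, 218 and 190.2 in ER-dKO.

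Both groups were in a GSK3 inhibitor, and the Wnt target list split. Of 16 tested, 4 were higher and 7 lower in ER-dKO, the same without the library labelled ER-dKO replicate 12, with a median of -1.45. *Axin2*, a negative regulator and general readout of the pathway, was higher, at 1778, 1714 and 1670.3 in RGd2 against 3089.9, 2666 and 2784 in ER-dKO (0.73 ± 0.13, adjusted p = 2.12e-05). *Notum*, a secreted Wnt deacylase, had 502, 512 and 396 in RGd2 and 1152, 1157 and 1096 in ER-dKO (1.27 ± 0.16), and *Ccnd1* (cyclin D1) 4669, 4343 and 4081 in RGd2 and 6937, 7489 and 7318 in ER-dKO (0.73 ± 0.12). The lower targets included *Sp5* (921, 935 and 708 against 242, 242 and 219, -1.86 ± 0.26), a direct target that represses others, *Nkd1* (-1.37 ± 0.26), and the streak genes *T*, *Wnt3*, *Cdx1* and *Cdx2* with *Lef1*, described above. The streak and formative lists also hold 5 of these 7 genes, so the counts over the lists are not independent.

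Among 9 TCF/LEF factors and antagonists tested, 4 were higher and 1 lower, with a median of 0.51. The counts were the same without the library labelled ER-dKO replicate 12, but another antagonist, *Dkk3*, was then called higher in place of *Ctnnb1*. With a fold change of at least 1.5 in addition, 2 were higher. *Tcf7* (Tcf1) overlapped between groups, with 823, 776 and 712 in RGd2 and 888, 735 and 868 in ER-dKO (0.11 ± 0.13, adjusted p = 0.548). The lower member was *Lef1*, which fell from 15.4 ± 1.31 FPKM (SD, n = 3) in RGd2 to 0.405 ± 0.102 in ER-dKO, while *Tcf7* was at 11.7 ± 0.442 and 11.6 ± 0.98. *Sfrp1*, a secreted antagonist of Wnt, was higher, at 102, 101 and 101 against 406, 441 and 453 (2.09 ± 0.16), and was at 1068, 1108 and 747 in 2i. *Apc*, of the β-catenin destruction complex, was higher (0.51 ± 0.13). *Ctnnb1* (β-catenin) was called at 0.24 ± 0.10, and leaving out any library other than RGd2 replicate 4 ended that call.

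ERK feedback and early response genes were mostly lower in ER-dKO than in RGd2, both in a medium without the MEK inhibitor. Of 17 tested, 2 were higher and 10 lower, with a median of -0.995, and 1 and 8 without the library labelled ER-dKO replicate 12. *Dusp6*, the phosphatase specific for ERK, had 2742, 2712 and 2356 in RGd2, 1355, 1176 and 1389.9 in ER-dKO and 156, 208 and 183 in 2i (-0.995 ± 0.12, adjusted p = 3.72e-09). *Dusp4* had 2746, 2455 and 2534 in RGd2, 1581, 1389 and 1603 in ER-dKO and 266, 210.4 and 315 in 2i (-0.76 ± 0.15), and *Spry1* 547, 462 and 531 in RGd2, 267, 279 and 278 in ER-dKO and 160.2, 176 and 149 in 2i (-0.90 ± 0.16). In all 3 the ER-dKO libraries stood between RGd2 in CH and RGd2 in 2i. *Spry4*, a Sprouty inhibitor of the pathway, went the other way, with 1006, 1085 and 999.6 in RGd2 and 2385, 2148 and 2508 in ER-dKO (1.19 ± 0.13) from 4.71, 6.57 and 1.03 in 2i.

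Among the early response genes, *Junb* had 498, 552 and 402 in RGd2, 24.1, 40.4 and 56.7 in ER-dKO and 28.3, 36.8 and 25.7 in 2i (-3.60 ± 0.25, adjusted p = 4.67e-15). *Myc* had 225, 258 and 269 in RGd2, 88.5, 83.4 and 72.1 in ER-dKO and 42.4, 65.7 and 58.6 in 2i (-1.62 ± 0.16), and *Ier3* 157, 85.1 and 114 in RGd2, 40.9, 43.4 and 34.8 in ER-dKO and 9.43, 26.3 and 31.9 in 2i (-1.55 ± 0.29). *Dusp5*, a nuclear ERK phosphatase, was under its 2i counts in ER-dKO, at 46.9, 46.8 and 34.8 against 73.1, 97.3 and 61.7 (-2.18 ± 0.22 against RGd2 in CH). Relative to 2i, *Dusp6* was thus 3.82 in RGd2 and 2.82 in ER-dKO, *Spry4* 8.07 and 9.26, and *Junb* 3.998 and 0.40.

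Of 16 genes for FGF ligands, receptors and adaptors, 3 were higher and 6 lower, and 2 and 6 without the library labelled ER-dKO replicate 12. The ligands diverged: *Fgf4* rose, as given above, while *Fgf5*, *Fgf8*, *Fgf15* (-1.25 ± 0.23) and *Fgf17* were lower. *Fgf17* had 502, 428 and 348 in RGd2 and 12.1, 25.8 and 10.5 in ER-dKO (-4.59 ± 0.26, and -5.21 without ER-dKO replicate 11), its ER-dKO counts being under those in 2i (177, 177 and 154). *Fgfr2* was lower in ER-dKO, at 455, 502 and 357 against 97.2, 125 and 97.2 (-2.03 ± 0.18), and several genes overlap it on the same strand. *Eras*, a Ras-like protein of ESCs, was higher, at 198, 159 and 206 against 493, 450.3 and 488 (1.36 ± 0.14).

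Notch receptors and ligands changed in both directions. Of 10 tested, 3 were higher and 3 lower (5 without the FPKM minimum), the same without the library labelled ER-dKO replicate 12, with a median of -1.08. Among the receptors, *Notch1* was higher, at 1049, 1048 and 1050.0 in RGd2 and 1923, 2013 and 1926 in ER-dKO (0.90 ± 0.12), and *Notch4* at 61.7, 83.9 and 80.3 in RGd2 and 609, 489 and 563 in ER-dKO (2.85 ± 0.17), the latter overlapping 2i at 507, 618 and 559. Among the ligands, *Jag1* was higher, at 487, 484 and 518 against 1591, 1523 and 1387 (1.60 ± 0.15). *Dll1* was lower, with 342, 317 and 336 against 10.7, 9.35 and 7.29 (-5.15 ± 0.26, adjusted p = 3.51e-19), as were *Jag2*, with 1232, 1004 and 1185 against 221, 221 and 254 (-2.30 ± 0.19), and *Dll3*, with 179, 168 and 108 against 46.2, 26.2 and 41.3 (-2.02 ± 0.32). Each of these 6 genes separated the groups without overlap. Of 11 cofactors of the pathway, 4 were higher and 1 lower, and 3 and 1 without the library labelled ER-dKO replicate 12, with *Spen*, an RBPJ corepressor, at 2299.6, 2044 and 1672 against 3671, 3387 and 3663 (0.83 ± 0.14), and *L3mbtl3*, another, at 508, 468 and 471 against 235, 207 and 205 (-1.16 ± 0.20).

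A list of Hes and Hey genes, other Notch targets and genes that respond to *Rbpj* loss had 7 higher and 2 lower of 12 tested, with a median of 1.48, and the same counts without the library labelled ER-dKO replicate 12. *Prickle1*, *Nrp2*, *Trh*, *Cidea* and *Gadd45g* were put on it because they differ in the *Rbpj* single mutants of the same study, so its count is not independent evidence of a direction. *Cidea*, a lipid droplet protein, had 8.51, 10.01 and 13.1 in RGd2, 1046, 832 and 967 in ER-dKO and 21.2, 59.2 and 36.0 in 2i, a log2 fold change of 6.48 ± 0.28 (adjusted p = 2.67e-21). *Nrp2*, a semaphorin and VEGF coreceptor, had 542, 615 and 369.9 in RGd2, 4760.2, 4296 and 4498 in ER-dKO and 568, 542 and 538 in 2i (3.14 ± 0.16), and *Trh*, the thyrotropin-releasing hormone, 14653, 12106 and 12949.7 in RGd2, 57483, 56832 and 54533 in ER-dKO and 5359, 4577 and 4844 in 2i (2.09 ± 0.18). For all 3 genes the library labelled ER-dKO replicate 12, with its *Rbpj* counts, lay with the other ER-dKO libraries, and without it the log2 fold changes were 6.46, 3.15 and 2.11. The bHLH repressor *Hes1* is a Notch target that the study counts among the genes RBPJ represses, and Notch activity was not tested in these libraries. *Hes1* had 353, 387 and 348 in RGd2 and 599, 691 and 660.1 in ER-dKO (0.84 ± 0.14), and *Hey1* 72.3, 73.8 and 67.3 in RGd2 and 554, 513 and 487 in ER-dKO (2.86 ± 0.20). *Nrarp*, a feedback inhibitor of Notch, had 132, 105 and 103 in RGd2 and 403, 416 and 435 in ER-dKO (1.89 ± 0.20), and *Prickle1*, of planar cell polarity, 685, 762 and 678 in RGd2 and 1441, 1494 and 1541 in ER-dKO (1.07 ± 0.16). *Prickle1* was at 101, 103 and 81.2 in 2i, so that it was over the 2i level in both CH groups.

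The lower members were *Lfng*, the Fringe enzyme that modifies Notch, at 78.7, 83.9 and 54.2 against 20.8, 22.1 and 13.8 (-1.91 ± 0.34), and *Gadd45g*, a growth arrest gene, at 143, 76.4 and 108 against 2.01, 1.496 and 0.81 (adjusted p = 5.46e-14). *Gadd45g* was under its 2i counts of 35.3, 40.8 and 48.3 in ER-dKO. *Hes5* and *Hes7* did not pass the filter on low counts.

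The Id genes code for inhibitors of bHLH factors, and *Id1* and *Id3* are usual readouts of BMP signaling. The study also counts *Id1*, *Id3* and *Id4* among the genes RBPJ represses, and BMP signaling was not tested in these libraries. Of 4 tested, 2 were higher and the others not called. *Id4* was nearly off in RGd2, at 23.4, 20.0 and 24.3, and on in ER-dKO, at 1207, 1071 and 1246, with 445, 532 and 439 in 2i (5.71 ± 0.23, adjusted p = 2.67e-22). *Id3* had 659, 544 and 424 in RGd2 and 1849, 1912 and 1984 in ER-dKO, with 165, 179 and 104 in 2i (1.82 ± 0.15). *Id1* had 198, 168 and 177 in RGd2 and 141, 131 and 156 in ER-dKO (-0.34 ± 0.26, adjusted p = 0.304), and *Id2* 72.3, 81.4 and 29.9 in RGd2 and 11.4, 10.1 and 9.72 in ER-dKO (-2.57 ± 0.33). With a mean just under 1 FPKM in RGd2, *Id2* missed the FPKM minimum for a call. It passed the minimum and was called lower in the fit without RGd2 replicate 6. Both CH groups were above 2i, by 3.22 in RGd2 and 2.88 in ER-dKO for *Id1* and by 1.89 and 3.71 for *Id3*.

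**Figure D4:**
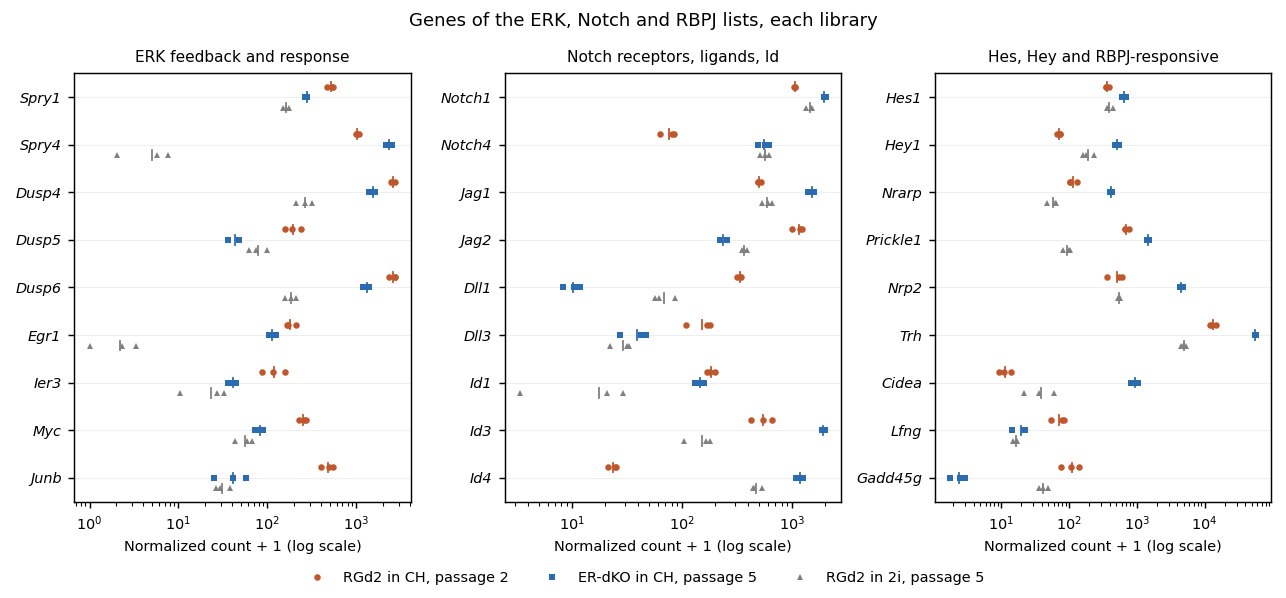
Normalized count plus 1 (log axis) of ERK feedback genes, Notch receptors, ligands and Id genes, and Hes, Hey and RBPJ-responsive genes in each library, with vertical ticks at group means. ER-dKO lies between RGd2 in CH and 2i for *Dusp4* and *Dusp6*, and above both for *Spry4*, *Nrp2*, *Trh* and *Cidea*.

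Promoters of a few of these genes are shown for the letters bound by RBPJ in vitro, GTGGGAA, because RBPJ is 1 of the lost factors. Windows of 250 bases before each RefSeq start in GRCm38.p6 were searched on both strands, and 5.42% of 32851 windows held the motif. The share was 6.46% for tested genes with a window, 7.54% for genes higher in ER-dKO and 5.73% for genes lower. For both motifs searched, a gene counts if any of its windows held the motif. Shares of genes are therefore comparable with each other but not with the share of windows. In the Hes, Hey and RBPJ-responsive list 4 of 10 genes with a window held it (*Hes5*, *Hes7*, *Hey2* and *Lfng*). None of these 4 was called higher in ER-dKO: *Hes5* and *Hes7* did not pass the filter on low counts, and *Lfng* was lower. Among naive factors 2 of 14 held it (*Nanog* and *Sox15*). For the ETS letters CCGGAAGT the shares were 2.88% of all windows, 6.04% of tested genes, 7.14% of higher and 3.87% of lower genes, with 0 in either list. Capitals mark GTGGGAA or its reverse complement, and a match is a description of letters and not of binding.
*Nanog*, chr6:122707241-122707270, plus strand: tgacctgaaacTTCCCACtagagatcgcca
*Tcf7l1*, chr6:72789082-72789111, minus strand: gctgggcccgcTTCCCACagagccacgccc
*Lfng*, chr5:140607221-140607250, plus strand: ccgtatcccacGTGGGAAggagagatctcc
*Nanog* and *Tcf7l1* were higher in ER-dKO and *Lfng* lower, as given above, and the matches lie 230, 48 and 102 bases before their starts.

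Nodal and BMP genes split as well, with 6 higher and 4 lower of 14 tested and a median of 0.18. *Lefty1* and *Lefty2*, neighboring genes for inhibitors of Nodal that ESCs express, moved apart. *Lefty1* had 6922, 6983 and 5439 in RGd2, 1061, 1331 and 1072 in ER-dKO and 4942, 5254 and 4779.8 in 2i (-2.48 ± 0.16, adjusted p = 3.8e-16). *Lefty2* had 3736, 3531 and 2179 in RGd2, 13313, 12125 and 11585 in ER-dKO and 15431, 15873 and 15307 in 2i (1.97 ± 0.17, adjusted p = 2.4e-12). RGd2 was called below 2i for *Lefty2* and not for *Lefty1*, and ER-dKO the reverse, although with TMM ER-dKO was also called below 2i for *Lefty2*. The genes are close paralogs, and reads shared between them make both values uncertain. *Bmp4* was higher, at 329.7, 394 and 284 against 867, 692 and 907 (1.28 ± 0.17), and *Smad6*, an inhibitory SMAD, lower, at 204, 209 and 138 against 44.2, 29.9 and 50.2 (-2.19 ± 0.25), while its relative *Smad7* was higher, at 1461, 1205 and 1263 against 2704, 2723 and 3042 (1.11 ± 0.17).

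Of 10 DNA methylation genes, 4 were higher and 1 lower. The maintenance pair *Dnmt1* (10098, 8749 and 9263 against 15477, 14608 and 14468) and *Uhrf1* (10415, 8752 and 9207 against 15911, 15459 and 15358) had log2 fold changes of 0.66 ± 0.11 and 0.72 ± 0.11, and the dioxygenase gene *Tet1* of 1.14 ± 0.14. *Dnmt3b* and *Dnmt3l*, partners in de novo methylation, had moved in opposite directions, as given above. *Dnmt3a* had 5286, 4459.7 and 5138 in RGd2 and 4449.9, 4041 and 4097 in ER-dKO (-0.24 ± 0.12, adjusted p = 0.108), which was called lower with TMM, with size factors from the gene counts and with only the libraries compared.

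The basement membrane list had 7 higher and 2 lower of 16 tested. *Fn1* (fibronectin) had 10549, 9102 and 8688 in RGd2 and 33237, 32806 and 33448 in ER-dKO (1.81 ± 0.14, adjusted p = 4.8e-14), and the nidogen gene *Nid1* 883, 762 and 648 in RGd2 and 2317, 2299.5 and 2466 in ER-dKO (1.63 ± 0.15). The laminin chains split: *Lama1* had 296, 215 and 729 in RGd2 and 5431, 4447 and 4756 in ER-dKO (3.58 ± 0.52), *Lamb2* was higher (1.23 ± 0.15), and *Lamb1* had 4723, 4065 and 4295 in RGd2 and 747, 730.1 and 629 in ER-dKO (-2.63 ± 0.29) with *Lama5* at -0.93 ± 0.13. RGd2 replicate 6 stood apart for *Lama1*, and also for *Col4a1*, at 679, 647 and 1618 in RGd2, and *Cubn*, at 10.6, 12.5 and 252. Without it the log2 fold change of *Lama1* was 4.28. *Col4a1* and *Cubn* were named after their values were seen. Of 21 integrins 4 were higher and 2 lower, beside 18.1% and 13.6% of all genes tested. Those called were led by *Itga9* (359.5, 307 and 282 against 1355, 1387 and 1532, 2.18 ± 0.15) and *Itga3* (2095, 2048 and 1446 against 377, 294 and 362, -2.44 ± 0.14).

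The list of epithelial and mesenchymal genes had 3 higher and 6 lower of 17 tested. *Epcam* had 4852, 4482 and 4568 in RGd2, 1079, 1128 and 966 in ER-dKO and 869.6, 922 and 664 in 2i (-2.13 ± 0.16, adjusted p = 3.11e-14). The claudins *Cldn7* (906, 844 and 732 against 27.5, 54.6 and 18.6) and *Cldn3* (987, 912 and 674 against 129, 127 and 119) had log2 fold changes of -4.52 ± 0.25 and -2.77 ± 0.17, the former -5.14 without ER-dKO replicate 11. Relative to 2i these 3 genes were at 2.51, 4.96 and 2.49 in RGd2 and at 0.38, 0.43 and -0.29 in ER-dKO. *Vim* (vimentin), of intermediate filaments, had 2946, 2776 and 2223 in RGd2 and 8117, 8581 and 8653 in ER-dKO (1.67 ± 0.13), and *Zeb1*, a repressor of epithelial genes, 159.5, 138 and 119.6 in RGd2 and 932, 852 and 857 in ER-dKO (2.67 ± 0.18). *Cdh2* (N-cadherin) and *Twist1* were lower (-0.96 ± 0.19 and -2.74 ± 0.38), so the mesenchymal members did not move as a block.

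Of 12 cell cycle genes, 4 were higher and 6 lower. The D cyclins separated: *Ccnd2* had 2059, 2016 and 1304 in RGd2, 6.70, 10.8 and 6.48 in ER-dKO and 68.3, 96.0 and 46.3 in 2i (-7.69 ± 0.44, adjusted p = 6.87e-18), whereas *Ccnd1* was higher, as given above, and *Ccnd3* had 1325, 1328 and 1104 in RGd2 and 2837, 2589 and 2719.8 in ER-dKO (1.12 ± 0.14). *Cdkn1a* (p21) was lower, at 2055, 1732 and 1633 against 643, 554 and 669.8 (-1.54 ± 0.15). *Cdkn1c* (p57), an imprinted gene, had 1057, 930.0 and 140.1 in RGd2 and 36.2, 35.5 and 7.29 in ER-dKO (-4.66 ± 0.73), and 214, 231 and 26.7 in 2i. The low library of each trio was RGd2 replicate 6 and 2i replicate 3, both of the clonal RGd2 line, and the library labelled ER-dKO replicate 12. Among stress genes, with 1 higher and 3 lower of 7, *Atf3* had 842, 683 and 557 in RGd2 and 13.4, 11.2 and 4.05 in ER-dKO (-6.10 ± 0.28), the latter overlapping 2i (16.5, 15.8 and 12.3), and *Asns*, of amino acid synthesis, 12549, 11343 and 12272 in RGd2 and 26451, 24385 and 25533 in ER-dKO (1.08 ± 0.11).

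All 16 genes of cholesterol synthesis considered were called lower in ER-dKO, and 15 without the library labelled ER-dKO replicate 12, with a median of -0.97. With a fold change of at least 1.5 in addition, 11 were lower. *Lss* (lanosterol synthase) had 8148, 7479 and 7262 in RGd2, 2233, 1984 and 2119.6 in ER-dKO and 2995, 3342 and 2897 in 2i (-1.85 ± 0.10, adjusted p = 6.12e-18). *Hmgcs1*, of the first steps, had 19873, 17242 and 15894 in RGd2, 8276, 7605 and 8278 in ER-dKO and 9829, 11690.5 and 10308 in 2i (-1.13 ± 0.12), and *Cyp51* 9424, 8246 and 7247 in RGd2, 3319, 3191 and 3185 in ER-dKO and 4046, 4591 and 4024 in 2i (-1.36 ± 0.11). For these 3 genes RGd2 was above 2i and ER-dKO below it. The change was smaller at *Fdft1* (-0.32 ± 0.10), whose call was lost without the library labelled ER-dKO replicate 12.

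Glycolysis genes gave 5 higher and 9 lower of 21, and 5 and 8 without the library labelled ER-dKO replicate 12, with a median of -0.13. *Ldha*, the lactate dehydrogenase chain that favors lactate, was lower, at 36951, 31346 and 37257 against 16982, 13634 and 14085 (-1.24 ± 0.13), and *Ldhb* higher, at 4869, 3715 and 3399 against 7926, 7910.2 and 8436 (1.02 ± 0.16). *Hk1* (1.76 ± 0.13) and *Pfkp* (1.78 ± 0.13) were higher, and the muscle-type and liver-type phosphofructokinase genes *Pfkm* and *Pfkl* moved by 0.57 ± 0.12 and -0.85 ± 0.13. *Gapdh* overlapped between the groups, with 89816, 82011 and 91472 in RGd2 and 100374, 90643 and 93509 in ER-dKO (0.11 ± 0.11, adjusted p = 0.436). Lysosomal genes gave 3 higher and 8 lower of 14, and 3 and 6 without the library labelled ER-dKO replicate 12, with *Acp5* at -2.03 ± 0.22. Without RGd2 replicate 4 or ER-dKO replicate 11, 5 of them were lower.

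**Figure D5:**
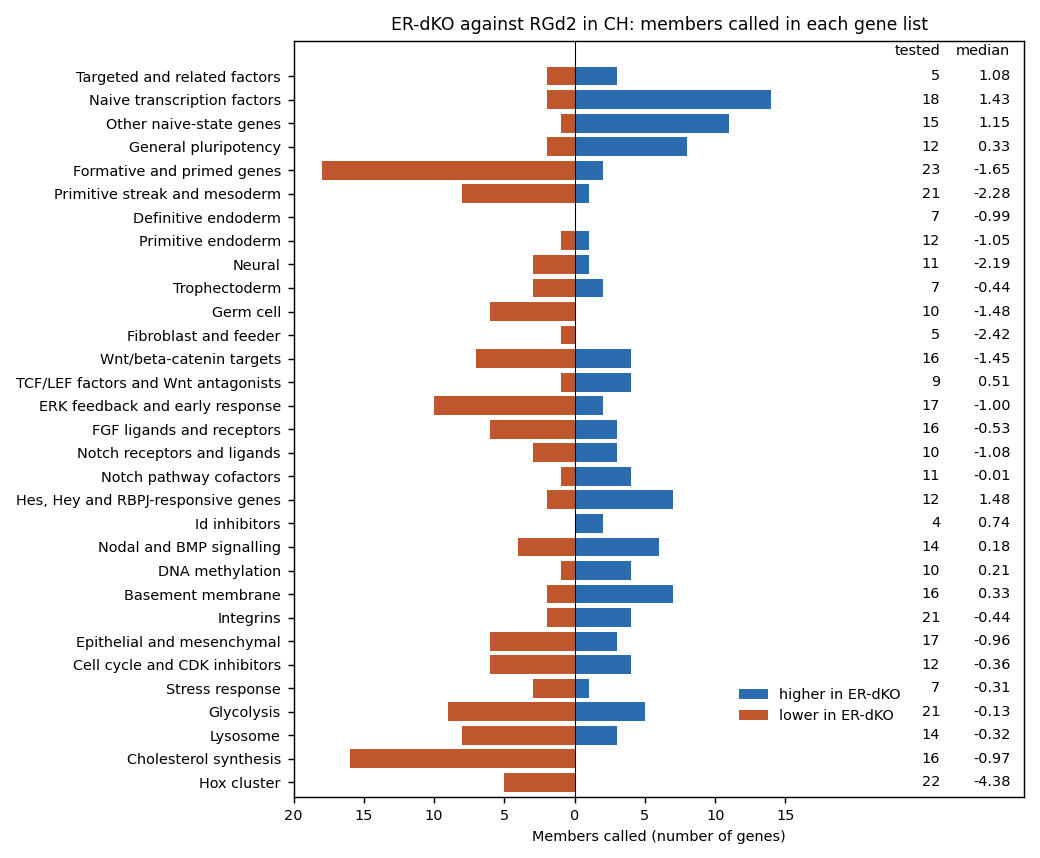
Number of members of each of the 31 gene lists called higher (right) or lower (left) in ER-dKO than in RGd2 in CH, with the number tested and the median log2 fold change at the right edge. Naive factors extend furthest to the right, with 14, and formative genes furthest to the left, with 18.

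The largest changes of all genes were taken from those called with and without the library labelled ER-dKO replicate 12, without overlap and with 30 or more counts in each library of the higher group. Of the 10 highest, *Cidea* and *Id4* are listed above and 8 are predicted or unnamed transcripts. *1700108F19Rik* was at 0 in every RGd2 library and had 103, 154 and 170.1 in ER-dKO, at least 27.1-fold higher against a floor of 3 counts per library. *1700016D06Rik* was likewise at 0 and had 46.9, 54.2 and 30.8, at least 8.38-fold higher, and 3 other gene models overlap it on the same strand. Its mean in ER-dKO, 1.003 ± 0.289 (SD, n = 3) FPKM, was close to the minimum for a call, which it missed without ER-dKO replicate 10 or 11 while its adjusted p stayed under 0.05. *Gm40977* had 4.25, 6.26 and 3.74 in RGd2 and 306, 315 and 290.0 in ER-dKO (adjusted p = 1.62e-16).

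Of the 10 lowest, *Hoxb1*, *Hoxb2*, *Hoxa5* and *Ccnd2* are described above. *Foxb1*, a forkhead factor of the neural tube, had 428, 506 and 461 in RGd2 and 0, 0 and 0.81 in ER-dKO, with 7.07, 9.20 and 15.4 in 2i. *Arg1*, the arginase of the urea cycle, had 126, 148 and 61.7 in RGd2 and 0 in every ER-dKO library, at least 60.2-fold lower against the same floor. *Cnn1* (calponin), of smooth muscle, had 528, 360.5 and 301 in RGd2 and 2.68, 1.87 and 0 in ER-dKO (adjusted p = 2.56e-17), and *Has2*, a hyaluronan synthase, 557, 566 and 555 in RGd2 and 5.36, 1.87 and 0.81 in ER-dKO (adjusted p = 2.26e-19). *Oasl2*, an interferon-inducible gene, had 538, 478 and 271 in RGd2 and 0, 1.496 and 2.43 in ER-dKO (adjusted p = 1.25e-16). These 5 genes were chosen for a call, a large change and no overlap, so their separation and adjusted p are not a further result.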

How the data were processed

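RNA-seq of 32 mouse ESC libraries in 11 conditions was used. Per the labels and methods, total RNA was processed with Ribo-Zero probes, which remove ribosomal RNA, and sequenced strand-specifically in pairs with spike-in transcripts, although another field of the labels gives polyA RNA. The authors trimmed adapters with Trim Galore (reads under 20 nt dropped), aligned with TopHat2 to mm10 and counted reads per gene with featureCounts. They deposited raw counts for 51826 genes and 92 spike-ins. IDs without a symbol were 193 (0.0259% of counts).

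Here, the 52 spike-ins with counts in every library gave size factors by median of ratios. All libraries entered a single fit in edgeR 4.0.16 (R 4.3.3) with 21 residual degrees of freedom. The quasi-likelihood test was two-sided, after filterByExpr, and p-values were adjusted by Benjamini-Hochberg over the genes that passed. FPKM and log2 fold changes were computed here. The code was tested on simulated counts. Alternatives used TMM, gene-based or total spike-in size factors, DESeq2 1.42.0, other filters and call rules, and fits without each library. Precision rests on the replicate spread and the depths given above.

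The comparison, gene lists and named genes were chosen with earlier results of these data known. Within a list up to 8 called genes with the largest changes were named, plus genes that the study itself names. Genes in the largest-change paragraphs needed 30 counts in every library of the higher group, no overlap between groups and a call with and without the library labelled ER-dKO replicate 12. *Axin2*, *Notum*, *Cldn6*, *Zic2*, *Socs3*, *Tcf7*, *Nkx1-2*, *Dnmt3a*, *Fdft1*, *Dkk3*, *Pfkm*, *Hoxa3*, *Msgn1* and the promoter examples *Hes5*, *Hes7*, *Hey2* and *Sox15* were chosen after their values were seen. *Kyat1*, not a Notch cofactor, was taken off that list after values were seen. Some genes are not reported here and were left out of the lists. Same-strand overlaps leave counts of overlapping genes uncertain.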

Additional observations from a re-analysis of the deposited data

How the results depend on the processing

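Genes called higher numbered 2774 to 3553 and genes called lower 2183 to 2590 when each of the 6 libraries was left out in turn. Higher genes were 57.0% of those called, from 3422 higher and 2578 lower. The share was 50.7% with a fold change of at least 1.5 (1905 and 1853), 48.2% without the FPKM minimum (4066 and 4374), 51.4% with size factors from the gene counts (3577 and 3377), 60.2% with TMM (4297 and 2837) and 57.2% with DESeq2 (3505 and 2627). The fit without the library labelled ER-dKO replicate 12 and with TMM, chosen after seeing the data, gave 4057 and 2636. Of 992 counts over gene lists, 50 moved by over 1.5 times. Without the FPKM minimum the lower members went from 8 to 14 for streak, 1 to 5 for primitive endoderm, 0 to 3 for definitive endoderm, 3 to 8 for neural, 1 to 4 for fibroblast, 3 to 5 for Notch receptor and ligand, 2 to 5 for basement membrane, 2 to 5 for integrin and 5 to 15 for Hox genes. With a fold change of at least 1.5 the higher members went from 8 to 4 for general pluripotency, 5 to 3 for glycolysis and 4 to 2 for TCF/LEF, Notch cofactor and cell cycle genes, and the lower lysosomal members from 8 to 3. The other counts that moved by over 1.5 times did so by 1 to 3 genes. Some counts under that limit moved by more genes. The lower members ranged from 7 to 14 for ERK feedback and early response and from 11 to 16 for cholesterol synthesis. 3 genes with log2 fold changes near 0, none called, changed sign. *Otx2* was at 0.0099 with TMM, 0.0096 with total spike-in counts, 0.054 without the library labelled ER-dKO replicate 12 and with TMM, and -0.10 to 0.13 when each library was left out. *Stat3* was at -0.053 with size factors from the gene counts and at -0.10 to 0.081 when each library was left out. *Sox15* was at -0.10 to 0.060 when each library was left out. No paired analysis was possible because the replicate numbers of the labels are not shared between the groups. Depth was lowest in RGd2, which limits genes with few counts there.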
